A study of Mus musculus with 10 samples.

Results

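The metabotropic glutamate receptor genes *Grm2*, *Grm3*, *Grm4*, *Grm5*, *Grm7* and *Grm8* were followed in hippocampal cap analysis of gene expression (CAGE) data, in which each tag marks the capped 5′ end of a transcript. They were taken by gene symbol from the table of tags per gene, where all 6 were found among 15900 listed genes. The other genes of the family were not analysed here. The study asked how gene expression in the hippocampus changed after status epilepticus (SE), a prolonged state of seizures, and how levetiracetam (LEV), an anti-epileptic drug that binds the synaptic vesicle protein SV2A, altered it.

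Male ICR (CD-1) mice, an outbred strain, were injected at 9 to 10 weeks of age, and whole hippocampi came from 10 animals, 2 for every one of the 5 groups. The pre-SE pair is labelled as untreated, and the methods of the study give saline in place of pilocarpine (PILO) for its control mice. SE 6 h and SE 2 days mice received methyl scopolamine, then PILO, a muscarinic agonist that provokes SE, and then diazepam to end the seizures, and their hippocampi were taken 6 h or 2 days later. SE + LEV 6 h and SE + LEV 2 days mice received the same and oral LEV from within 30 min after diazepam, 1 dose before sampling at 6 h and 5 doses before sampling at 2 days. All SE groups thus also differ from pre-SE mice by PILO, which cannot be told apart from SE itself. The methods do not say outright whether control mice had methyl scopolamine or diazepam, so any part of these drugs cannot be told apart either.

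Metabotropic glutamate receptors are receptors for the transmitter glutamate that signal through G proteins and not through a channel of their own. Group I, here *Grm5*, couples to Gq and phospholipase C and sits mostly on the postsynaptic side, tied to Homer scaffolds. Group II (*Grm2* and *Grm3*) and group III (*Grm4*, *Grm7* and *Grm8*) couple to Gi/o, lower cAMP and are known for damping transmitter release at presynaptic terminals, among them the mossy fibres of the hippocampus, while *Grm3* is also made by astrocytes.

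Values are CPM, the tags of a gene per 1000000 tags on the listed genes of that library. A CAGE tag counts 5′ ends, so gene length does not by itself set the CPM. Levels of different genes can be set side by side only as far as their tags were assigned to genes alike, which was not tested. The libraries held 10540698 to 51710968 tags on listed genes, with a median of 26671413, and a gene with 3 tags, used as the detection limit, would read 0.058 to 0.285 CPM. Groups were compared with limma on log2(CPM + 0.1) in 1 fit that held all 10 libraries, with p-values adjusted by Benjamini-Hochberg across 15851 genes that reached 0.1 CPM in 2 or more libraries, a filter that all 6 receptor genes passed. The logFC values are differences on that scale, which understates changes of low genes, and a gene was called at an adjusted p of at most 0.05. With 2 mice against 2, an exact permutation test (two-sided) can reach no p below 0.333, so a call rests on the spread that the fit shares across genes and groups. Markers of cell types were read beside the labelled tissue: 4 of 5 neuronal markers were listed and summed to 2770 to 4780 CPM. None of the listed markers of 4 pyramidal, 3 granule and 5 astrocyte genes was at 0 in all libraries. The same held for every cell type read, so it cannot check the tissue. The libraries were not alike in everything else: 2 choroid plexus markers summed to 7.99 CPM in 1 SE 6 h mouse and to 3960 CPM in the other, and to 12 and 1690 CPM in the pre-SE mice. Labels give the mice of a group numbers, but same-numbered mice are different animals, and p-values measure the spread between mice.

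In the mm9 genome with GENCODE vM1 annotation, *Grm2* lies on the minus strand of chromosome 9 from 106546868 to 106558440, with 6 exons in its 1 transcript. *Grm3* is on the minus strand of chromosome 5 from 9485236 to 9725352. *Grm7* spans 921650 bp of the plus strand of chromosome 6, from 110595575 to 111517224, with 4 annotated transcript starts. *Grm8* also lies on chromosome 6, on the minus strand from 27225121 to 28085178, *Grm4* on the minus strand of chromosome 17 from 27559332 to 27650286, and *Grm5* on the plus strand of chromosome 7 from 94750952 to 95283417. A processed transcript annotated on the other strand covers the start of *Grm7* and is listed as a gene of its own at 1.96 to 6.55 CPM, against 70.73 to 180.54 CPM for *Grm7*. Whether strand was used in summing tags to genes is not given in the sources used here, so reads of this pair cannot be told apart with certainty.

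The promoters of the 3 receptor genes with the most tags are shown because CAGE tags are read from the starts that these sequences precede. Each runs from 150 bases before to 10 bases after a RefSeq start (GRCm38.p6), taken for *Grm7* as the start nearest the annotated gene start, is read 5′ to 3′ on the gene's strand, and was matched to the mm9 genome at a single place. Capitals mark CpG dinucleotides, which are dense in one broad class of mammalian promoters.
Grm7 promoter, chr6:110595442-110595601, plus strand: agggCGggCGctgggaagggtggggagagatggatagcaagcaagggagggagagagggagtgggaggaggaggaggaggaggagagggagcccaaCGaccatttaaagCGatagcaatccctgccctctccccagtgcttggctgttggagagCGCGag
Grm3 promoter, chr5:9725343-9725502, minus strand: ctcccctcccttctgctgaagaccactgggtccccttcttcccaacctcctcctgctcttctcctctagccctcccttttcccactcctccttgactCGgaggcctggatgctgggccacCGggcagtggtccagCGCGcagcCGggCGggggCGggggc
Grm2 promoter, chr9:106558431-106558590, minus strand: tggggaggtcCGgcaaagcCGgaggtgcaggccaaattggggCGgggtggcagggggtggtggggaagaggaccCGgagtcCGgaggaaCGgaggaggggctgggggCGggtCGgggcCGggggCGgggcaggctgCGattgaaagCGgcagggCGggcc
The *Grm2* window held 13 CpG dinucleotides, the *Grm3* window 7 and the *Grm7* window 6, against a median of 4 in 32482 RefSeq promoter windows of the same length. On both strands, none of these windows held a cAMP response element (TGACGTCA, in 1.5% of all windows) or the part of it that reads TGACG (in 14.5%), an AP-1 site (TGANTCA, in 4.51%) or a TATA box (TATAAA, in 7.86%). The *Grm3* window held 1 EGR site (GCGNGGGCG, in 4.07% of all windows), which begins 4 bases before the start. These are matches of letters only, and the table of sequences held *Grm8* as well, but not *Grm4* and *Grm5*.

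*Grm7* was the most abundant of the 6 genes, followed by *Grm3*, *Grm2*, *Grm4*, *Grm8* and *Grm5*. Over the 10 libraries *Grm7* averaged 124 CPM, *Grm3* 47.4 CPM and *Grm2* 19.2 CPM, whereas *Grm4* averaged 4.41 CPM and *Grm8* 4.08 CPM. *Grm5* averaged 0.16 CPM and had 3 tags or fewer in 5 of 10 libraries. The order *Grm7*, *Grm3*, *Grm2* held in 10 of 10 libraries, but *Grm4* was above *Grm8* in only 6 of 10, so these neighbours did not differ beyond their spread. The mean of *Grm7* was above that of 89% of all listed genes, and the mean of *Grm5* above that of 2.7%.

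**Figure D1:**
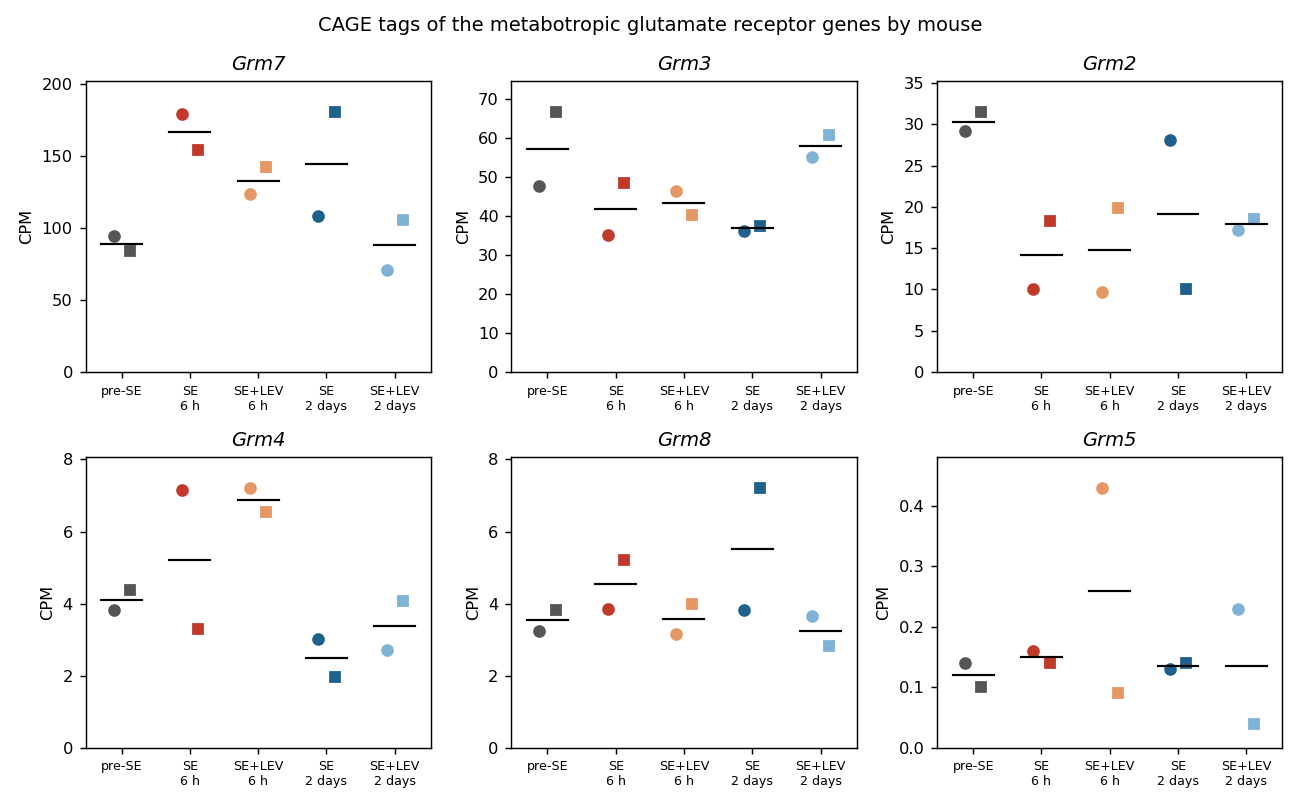
CPM of each receptor gene (vertical axes, from 0) in each mouse of the 5 groups (circles, replicate 1; squares, replicate 2; lines, group means). *Grm7* runs from 70.73 to 180.54 CPM and *Grm2* is highest in the pre-SE mice, at 29.21 and 31.46 CPM.

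*Grm7* also took the largest share of the summed tags of the 6 genes in every mouse. Its share was 52.8% and 44.1% before SE, and at 6 h it was 76.1% and 67.2% without LEV and 65% and 66.7% with LEV. At 2 days it was 60.4% and 76% without LEV and 47.3% and 55% with LEV. Both SE groups and the SE + LEV 6 h group were thus above both pre-SE mice, and the SE + LEV 2 days mice overlapped them. *Grm2* took 16.4% and 16.5% of the sum in pre-SE mice and 4.24% to 15.6% in the other mice. The sum itself ranged from 150 to 237 CPM.

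**Figure D2:**
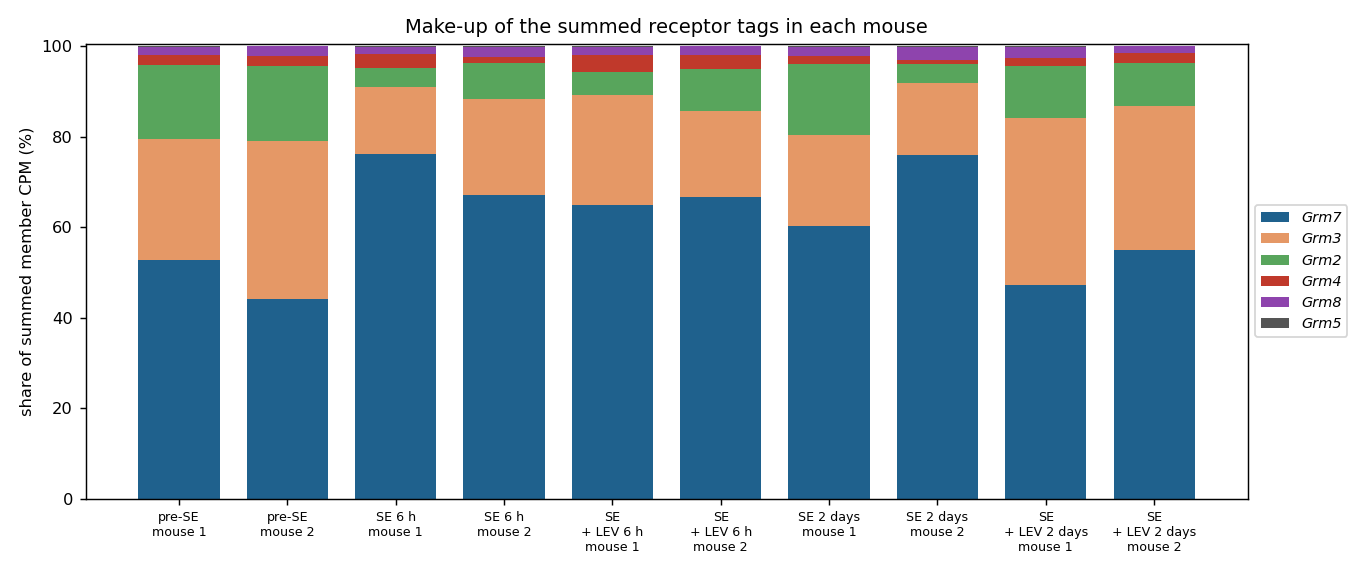
Share of each receptor gene in the summed CPM of the 6 genes (vertical axis, percent) for each of the 10 mice. *Grm7* takes 44.1% to 76.1%, and *Grm4*, *Grm8* and *Grm5* together form the thin top layers.

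Against pre-SE mice, limma called 0 of the 6 receptor genes in SE 6 h mice, where 2.96% of all genes tested were called, and 0 in SE 2 days mice, where 5.66% were. At an unadjusted p under 0.05 there were 2 receptor genes at each time, *Grm7* and *Grm2* at 6 h and *Grm7* and *Grm3* at 2 days. Of all 15851 genes tested, 2809 at 6 h and 3132 at 2 days had such a p. The SE 6 h and pre-SE groups did not overlap for 3 of 6 receptor genes, against 49.9% of all genes, and the SE 2 days and pre-SE groups for 4 of 6, against 52% of all genes. Both comparisons use the same pre-SE mice. The median logFC of all genes was -0.13 at 6 h and -0.03 at 2 days, and rescaling the libraries by the median of ratios brought it to -0.005 at 6 h, so the 6 h values of the receptor genes are also given after rescaling where they are described.

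LEV was compared with SE alone at each time. In SE + LEV 6 h against SE 6 h mice, 0 of 6 receptor genes were called, with 0.0126% of all genes called, and the groups did not overlap for 1 of 6, against 29.5% of all genes. In SE + LEV 2 days against SE 2 days mice, 0 of 6 were called, with 0% of all genes called, and the groups did not overlap for 3 of 6, against 27.4% of all genes. No receptor gene at 6 h and 2 at 2 days, *Grm3* and *Grm7*, had an unadjusted p under 0.05, as had 726 and 428 of all genes. Testing whether LEV acted differently at 2 days and at 6 h called 0 of 6 receptor genes, 0 at an unadjusted p under 0.05, with 0% of all genes called and 377 at an unadjusted p under 0.05. Over the 9 comparisons made, the quasi-likelihood test of edgeR on recovered tags called 0 receptor genes and DESeq2 called 1, *Grm7* in SE 6 h against pre-SE mice.

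**Figure D3:**
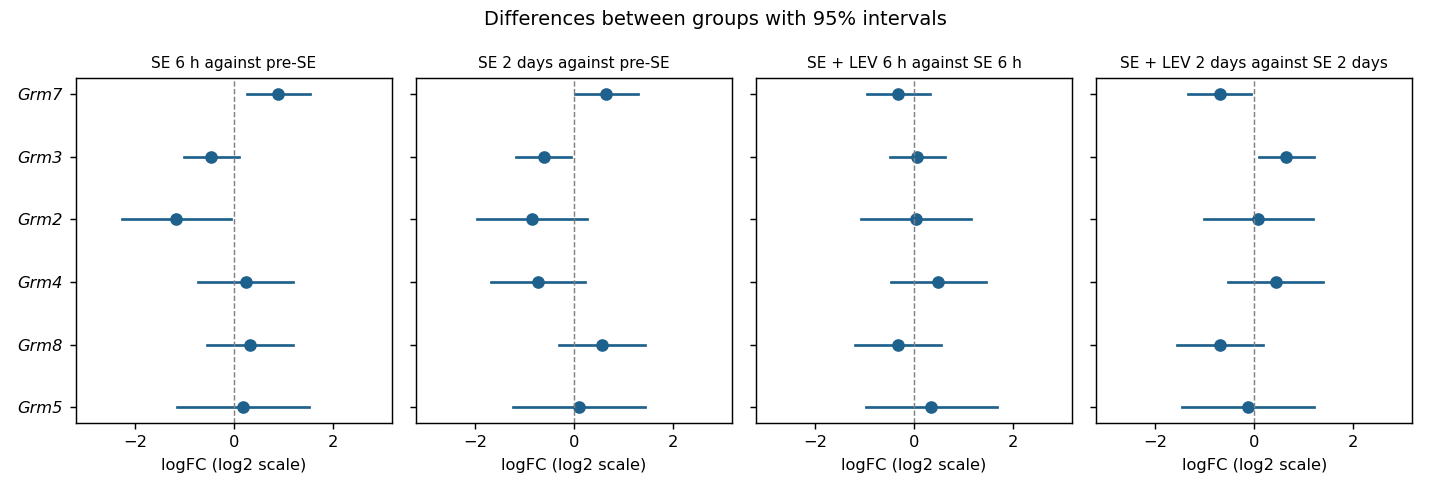
logFC of each receptor gene (horizontal axes, log2 scale; points) with its 95% interval from limma (lines) for SE relative to pre-SE mice and for LEV relative to SE alone. The interval of *Grm7* lies above 0 in both comparisons with pre-SE mice and below 0 for LEV at 2 days, but none of these values passed the adjusted threshold.

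Of group II, *Grm2* encodes an autoreceptor found on presynaptic terminals. It stood at 29.21 and 31.46 CPM before SE, 10.01 and 18.23 CPM at 6 h after SE (9.7 and 19.92 with LEV) and 28.15 and 10.08 CPM at 2 days (17.17 and 18.57 with LEV). All 8 mice given PILO were below both pre-SE mice, but the SE 2 days mice were far apart, and 1 of them was close to the pre-SE level. Group means were 30.3 ± 1.59 CPM in pre-SE, 14.1 ± 5.81 in SE 6 h and 19.1 ± 12.8 in SE 2 days mice (SD, n = 2). The logFC was -1.16 at 6 h (SE 0.499, adjusted p = 0.261 by limma; -1.03 after rescaling) and -0.84 at 2 days (adjusted p = 0.399), and neither passed the test. Without SE 2 days replicate 1 the 2 days value was -1.58, and without SE 2 days replicate 2 it was -0.11. With LEV the logFC against SE was 0.04 at 6 h and 0.08 at 2 days, with 95% intervals of -1.07 to 1.15 and -1.03 to 1.19, and the sign of both turned in other settings. As these are whole hippocampi, fewer cells that make a receptor and less of its RNA per cell cannot be told apart.

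*Grm3*, the other group II receptor, is made by neurons and astrocytes and also answers to the peptide transmitter NAAG. It stood at 47.73 and 66.58 CPM before SE, 35.22 and 48.37 CPM at 6 h after SE (46.28 and 40.32 with LEV) and 36.21 and 37.54 CPM at 2 days (55.05 and 60.75 with LEV). The SE 2 days mice lay close together and below both pre-SE mice and both SE + LEV 2 days mice, whereas the SE 6 h mice overlapped the pre-SE mice. At 2 days the logFC was -0.61 against pre-SE (95% interval -1.17 to -0.06, unadjusted p = 0.0342, adjusted p = 0.206) and 0.65 for LEV against SE (0.092 to 1.204, unadjusted p = 0.0265, adjusted p = 1), both by limma and both short of the threshold. At 6 h these values were -0.45 (adjusted p = 0.375; -0.32 after rescaling) and 0.07 (adjusted p = 1), the latter with a sign that turned when 1 mouse was left out. The LEV effect at 2 days was 0.58 above that at 6 h (SE 0.353, unadjusted p = 0.13, adjusted p = 1), so a difference between the times was not shown.

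Markers of several cell types differed between the same groups. The oligodendrocyte markers *Mbp*, *Mog*, *Mag* and *Mobp* summed to 3053 and 3414 CPM before SE, to 1170 and 1708 CPM at 2 days after SE and to 2086 and 2744 CPM at 2 days with LEV. Like the group mean of *Grm3*, this sum, most of it *Mbp*, was lowest in the SE 2 days mice, although limma called 0 of 4 of these markers in either comparison, with median logFC values of -1.128 after SE and 0.702 with LEV. *Mag* was the exception, with group means of 94.6 CPM in SE 6 h and 110 CPM in SE 2 days mice. Astrocyte markers went both ways. *Gfap*, a filament protein of reactive astrocytes, was at 245.62 and 230.22 CPM before SE and 2281.84 and 3642.11 CPM at 2 days (logFC 3.60, adjusted p = 0.000955), and *Aqp4* was called higher too (logFC 1.57, adjusted p = 0.0107). The other 3 were not called: *Aldh1l1* had a logFC of 1.19, *Gja1* of -0.98 and *Aldoc* of -1.18. All 5 summed to 1310 and 827 CPM before SE, 2770 and 4140 CPM at 2 days and 3550 and 3250 CPM at 2 days with LEV. Without *Gfap* the sums were 1065 and 597 CPM before SE, 485 and 494 CPM at 2 days and 478.5 and 942.9 CPM at 2 days with LEV. None of these markers was at 0. Summed neuronal markers were 4780 and 4330 CPM in pre-SE mice and 3290 and 2800 CPM in SE 2 days mice, with 0 of 4 called by limma. Granule cell markers summed to 439 and 363 CPM in pre-SE and 270 and 199 CPM in SE 2 days mice, with 0 of 3 called. Pyramidal cell markers summed to 373 and 318 CPM in pre-SE and 278 and 398 CPM in SE 2 days mice, with 1 of 4 called lower. Among them *Fibcd1* was at 63.25 and 34.48 CPM in pre-SE and 18.23 and 7.16 CPM in SE 2 days mice (31 and 32.9 with LEV). Summed microglia markers were 156 and 148 CPM in pre-SE, 79.1 and 68.6 in SE 6 h and 289 and 274 in SE 2 days mice. Against pre-SE mice limma called 2 of 5 lower at 6 h and 1 of 5 higher at 2 days. At 2 days *Tmem119*, *Cx3cr1*, *Csf1r* and *Aif1* were above both pre-SE mice. *P2ry12* went the other way, from 41.45 and 26.88 CPM in pre-SE to 18.06 and 16.91 CPM in SE 2 days mice. The part of these differences in the values of the receptor genes was not tested.

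*Grm7* encodes a group III receptor of the presynaptic active zone with a low affinity for glutamate. It stood at 94.19 and 83.83 CPM before SE, 179.45 and 154.17 CPM at 6 h after SE (123.9 and 142.21 with LEV) and 108.58 and 180.54 CPM at 2 days (70.73 and 105.6 with LEV). Both mice of both SE groups and of the SE + LEV 6 h group were above both pre-SE mice, and at each time the LEV mice were below the SE mice. In the order of group means, from 167 ± 17.9 CPM in SE 6 h to 88.2 ± 24.7 CPM in SE + LEV 2 days mice (SD, n = 2), the neighbours SE + LEV 6 h and pre-SE did not overlap, while all other neighbours did.

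Against pre-SE mice the logFC of *Grm7* was 0.90 at 6 h (SE 0.287, 95% interval 0.27 to 1.54, unadjusted p = 0.0101, adjusted p = 0.142 by limma; 1.03 after rescaling) and 0.66 at 2 days (unadjusted p = 0.0449, adjusted p = 0.237). With DESeq2 the adjusted p at 6 h was 0.0254, in a range of 0.0254 to 0.469 over all alternatives, so the call depended on the tool. When single mice were left out the logFC stayed between 0.79 and 1.01 at 6 h but moved from 0.29 to 1.02 at 2 days, the lowest without SE 2 days replicate 2 and the highest without SE 2 days replicate 1. For LEV against SE the logFC was -0.33 at 6 h (95% interval -0.96 to 0.31, adjusted p = 1) and -0.70 at 2 days (-1.33 to -0.06, unadjusted p = 0.0353, adjusted p = 1), which was -0.33 without SE 2 days replicate 2 and -1.06 without SE 2 days replicate 1. The difference between these LEV effects was -0.37 (SE 0.405, adjusted p = 1). The antisense transcript over the *Grm7* start was at 3.35 and 4.41 CPM in pre-SE and 3.69 and 2.54 CPM in SE 6 h mice, which overlapped. It was at 5.68 and 6.55 CPM in SE + LEV 6 h mice, above both of those groups, and at 4.71 and 1.96 CPM at 2 days after SE and 2.51 and 3.86 CPM at 2 days with LEV. Its part in the values of *Grm7* was not tested.

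*Grm4*, a group III receptor best known from parallel fibre terminals of the cerebellum, was low. It stood at 3.83 and 4.37 CPM before SE, 7.15 and 3.29 CPM at 6 h after SE (7.21 and 6.55 with LEV) and 3.01 and 1.96 CPM at 2 days (2.7 and 4.07 with LEV). Both SE 2 days mice were below both pre-SE mice and both SE 6 h mice, and both SE + LEV 6 h mice exceeded the pre-SE pair. Relative to pre-SE mice the logFC was 0.24 at 6 h (adjusted p = 0.81; 0.37 after rescaling, with a sign that turned without SE 6 h replicate 1) and -0.73 at 2 days (adjusted p = 0.399; -0.43 without SE 2 days replicate 2), and none passed the test. From 41 to 226 tags stood behind each value.

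*Grm8*, the remaining group III receptor and one with a high affinity for glutamate, had 42 to 198 tags in each library. It stood at 3.24 and 3.83 CPM before SE, 3.85 and 5.21 CPM at 6 h after SE (3.16 and 3.98 with LEV) and 3.82 and 7.21 CPM at 2 days (3.66 and 2.83 with LEV). The SE 6 h mice exceeded the pre-SE mice by a narrow margin, and SE 2 days replicate 2 was higher than all others. The logFC was 0.34 at 6 h (adjusted p = 0.693; 0.46 after rescaling), 0.56 at 2 days (adjusted p = 0.487) and -0.69 for LEV against SE at 2 days (95% interval -1.56 to 0.18, adjusted p = 1). Without SE 2 days replicate 2 these 2 days values were 0.11 and -0.24, and without SE 2 days replicate 1 they were 1.01 and -1.14.

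The group I receptor *Grm5* was barely detected, at 1 to 13 tags. It stood at 0.14 and 0.1 CPM before SE, 0.16 and 0.14 CPM at 6 h after SE (0.43 and 0.09 with LEV) and 0.13 and 0.14 CPM at 2 days (0.23 and 0.04 with LEV). The groups overlapped in every comparison, and a difference was not detectable at so few tags: the 95% interval of the logFC at 6 h ran from -1.14 to 1.52 around 0.19 (0.27 after rescaling). The library with the most tags, pre-SE replicate 2, held 5 tags of *Grm5*. Whether little RNA or tags not assigned to the gene lie behind these counts was not tested. The authors discarded clusters of tags under 0.1 CPM, yet *Grm5* is listed down to 0.04 CPM, and the part of that limit in its values was not tested.

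The remaining comparisons gave no calls among the 6 receptor genes by limma. In SE + LEV 6 h against pre-SE mice 0.322% of all genes were called, the groups did not overlap for 4 of 6 receptor genes against 42.5% of all genes, and 1, *Grm2*, had an unadjusted p under 0.05 (logFC -1.12, unadjusted p = 0.0485, adjusted p = 0.526), as had 1487 of all 15851 genes. In SE + LEV 2 days against pre-SE mice 2.85% of all genes were called, and the groups did not overlap for 1 of 6, *Grm2*, against 40.1% of all genes, with 0 receptor genes and 1707 of all genes at an unadjusted p under 0.05. In SE 2 days against SE 6 h mice 4.25% of all genes were called, and the groups did not overlap for 1 of 6, *Grm4*, against 51.1% of all genes (logFC -0.97, unadjusted p = 0.0476, adjusted p = 0.243), and its logFC was -0.42 without SE 6 h replicate 1, -0.67 without SE 2 days replicate 2 and -1.52 without SE 6 h replicate 2. In SE + LEV 2 days against SE + LEV 6 h mice 2.14% of all genes were called, and the groups did not overlap for 3 of 6, *Grm3*, *Grm4* and *Grm7*, against 41.2% of all genes. *Grm4* had a logFC of -1.03 there (unadjusted p = 0.0376, adjusted p = 0.378).

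To see which genes had profiles like those of the receptor genes, the root mean square difference of log2(CPM + 0.1), each gene centred on its own mean, was taken over the 10 libraries among 14220 genes with a mean of at least 1 CPM. Nearest to *Grm7* were *Slc7a1* (0.177), a cationic amino acid transporter, *Fstl4* (0.178) and *Zbtb17* (0.185), against a median of 0.599 over all genes ranked. Nearest to *Grm3* were *Lrrc27* (0.103), *Fads1* (0.125) and *Fads2* (0.128), the last of which are fatty acid desaturases that neighbour each other in the genome, with a median of 0.435. Nearest to *Grm2* were *Ccdc48* (0.192), *Napepld* (0.203), an enzyme that makes the lipid messenger anandamide, and *Zfp874b* (0.273), with a median of 0.66. For *Grm4* they were *Ptchd1* (0.262), *Kcng3* (0.265) and *Cables1* (0.272), and for *Grm8* they were *Pfkfb4* (0.184), *Wdfy1* (0.184) and *Aars* (0.185). For *Grm5*, at a few tags, 2 of the 3 nearest rows were copies of *Hspa14* with the same values under separate identifiers (0.241), and the third was *Wdr26* (0.272). These values describe 10 libraries and were not tested.

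**Figure D4:**
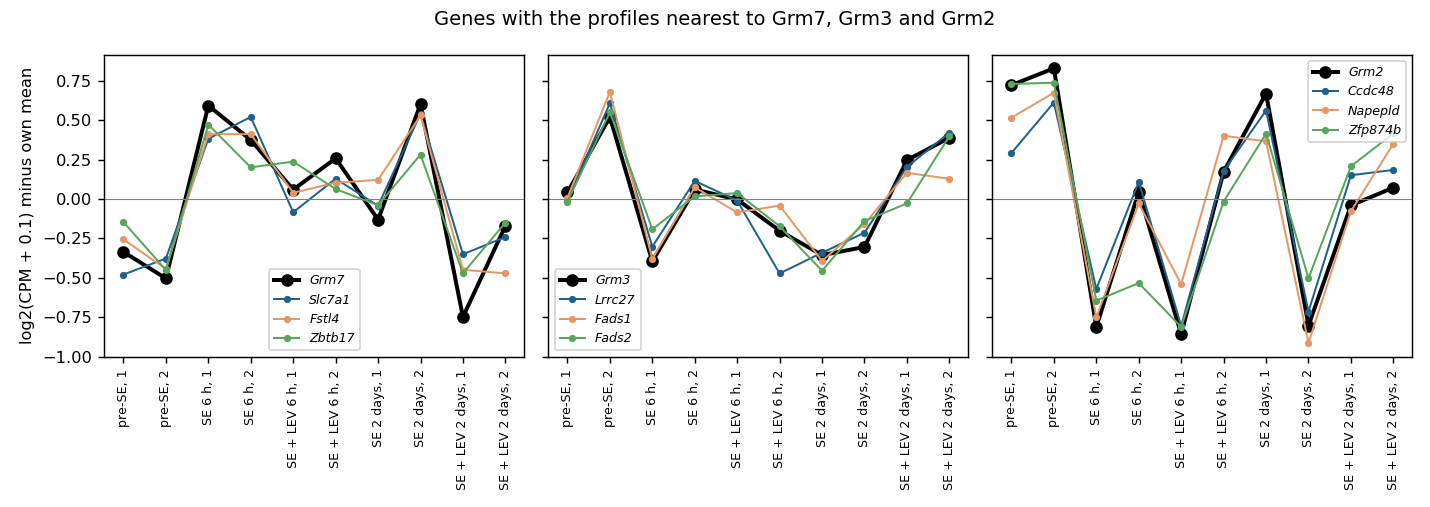
log2(CPM + 0.1) minus the gene's own mean (vertical axis) over the 10 mice (horizontal axis, group and replicate) for *Grm7*, *Grm3* and *Grm2* (black) and the 3 genes nearest to each (colours). As they were picked for a profile like that of *Grm2* in these mice, the genes nearest to it share its 1 high and 1 low SE 2 days mouse, as in *Napepld* at 24.25 and 9.93 CPM.

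Genes that act with these receptors were taken in lists by role. Among 8 genes that end G protein signalling or uncouple the receptors, 1 rose at 6 h after SE, with 2.96% of all genes called, and 3 at 2 days, with 5.66% of all genes called, and none fell. All were regulators of G protein signalling (RGS), which speed the hydrolysis of GTP on G protein alpha subunits. *Rgs7*, an RGS protein of neurons, stood at 2.31 and 1.24 CPM before SE, 50.58 and 37.21 CPM at 6 h after SE (19.94 and 28.27 with LEV) and 6.78 and 20.16 CPM at 2 days (5.35 and 9.16 with LEV). It rose with a logFC of 4.60 at 6 h (SE 0.519, adjusted p = 0.00234 by limma) and 2.72 at 2 days (adjusted p = 0.0135), and was higher in SE + LEV 6 h than in pre-SE mice (logFC 3.73, adjusted p = 0.0195). *Rgs2* was at 35.73 and 48.15 CPM in pre-SE and 214.7 and 134.3 CPM in SE 6 h mice (166.5 and 84.81 with LEV). At 2 days it was at 156.66 and 334.96 CPM (logFC 2.46, adjusted p = 0.017 by limma) and with LEV at 96.77 and 41.65 CPM. *Rgs4* was at 274.66 and 235.52 CPM in pre-SE and 1022.74 and 727.6 CPM in SE 6 h mice (779.03 and 420.37 with LEV). At 2 days it was at 872.58 and 1071.74 CPM (logFC 1.93, adjusted p = 0.0342 by limma) and with LEV at 771.48 and 284.31 CPM. Both genes were thus above both pre-SE mice already at 6 h, but were not called there. Another RGS gene of the list, *Rgs14*, was not called. It was at 78.39 and 75.52 CPM in pre-SE mice, lower at 59.79 and 51.8 CPM in SE 6 h mice, and at 104.56 and 53.35 CPM in SE 2 days mice. The receptor kinase genes *Adrbk1* and *Adrbk2* and the arrestin genes *Arrb1* and *Arrb2* were not called, and the median logFC of the list was -0.21 at 6 h and 0.11 at 2 days, against -0.13 and -0.03 for all genes.

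Among 13 scaffolds and tail partners of the receptors, 1 rose at 2 days, a share of the list near the 5.66% of all genes called, and 0 were called at 6 h (2 at an unadjusted p under 0.05, as had 2809 of all 15851 genes), with median logFC values of -0.32 at 2 days and -0.03 at 6 h. The gene that rose was *Grasp*, which encodes tamalin, an adaptor that binds the tails of group I receptors. It stood at 77.22 and 92.11 CPM before SE, 144.65 and 178.49 CPM at 6 h after SE (197.66 and 260.61 with LEV) and 213.06 and 210.87 CPM at 2 days (157.85 and 127.9 with LEV). All mice given PILO were above both pre-SE mice, with a logFC of 1.33 at 2 days (SE 0.232, adjusted p = 0.00864) and of 1.43 in SE + LEV 6 h against pre-SE mice (adjusted p = 0.0375; 0.0575 with the replicate number as a block). *Homer1*, a gene of the Homer scaffolds whose transcript forms are not separated by a gene total, was at 133.36 and 124 CPM in pre-SE and 1214.15 and 916.16 CPM in SE 6 h mice, a logFC of 3.04 that did not pass the test (adjusted p = 0.0572), although its adjusted p ran from 0.00602 to 0.228 over the alternatives. At 6 h that of *Grasp* was 0.0661 and ran from 0.00265 to 0.336, so for both genes the side of the threshold depended on the setting.

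Of the 9 genes tested of the 10 in the Gq arm, 1 rose at 2 days, where 5.66% of all genes were called, and none was called at 6 h (0 at an unadjusted p under 0.05), and the median logFC was -0.50 at 2 days and -0.06 at 6 h. It was *Plcb3*, a phospholipase C beta, at 10 and 11.27 CPM in pre-SE and 21.16 and 24.65 CPM in SE 2 days mice (logFC 1.098, SE 0.265, adjusted p = 0.0395). This call was lost with the replicate number as a block (adjusted p = 0.0543) and without either SE 6 h mouse (adjusted p = 0.056 and 0.0553). Among the 12 genes of the Gi/o arm, limma called 0 at either time (2 at an unadjusted p under 0.05 at each, against 2809 at 6 h and 3132 at 2 days of all 15851 genes), with medians of -0.19 at 6 h and -0.37 at 2 days. The potassium channel gene *Kcnj9*, a target of Gi/o subunits, was at 32.42 and 43.34 CPM in pre-SE and 20.37 and 14.53 CPM in SE 6 h mice (logFC -1.12, adjusted p = 0.0651, from 0.0254 to 0.394 over the alternatives). Among 11 genes of glutamate and NAAG supply and clearance, limma called 0 at either time (0 and 3 at an unadjusted p under 0.05, against the same 2809 and 3132 of all genes), and at 2 days the estimates of 11 of 11 were below 0 and their median was -0.63. Estimates below 0 at 2 days were also found for 11 of 13 scaffolds and tail partners, 8 of 9 Gq and 11 of 12 Gi/o genes. They were found for 3 of the 8 genes that end signalling. All these estimates come from the same mice. The glial glutamate transporter *Slc1a2* was at 1546.8 and 1484.23 CPM in pre-SE and 786.25 and 808.71 CPM in SE 2 days mice (logFC -0.93, adjusted p = 0.0614, from 0.00803 to 0.297 over the alternatives).

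**Figure D5:**
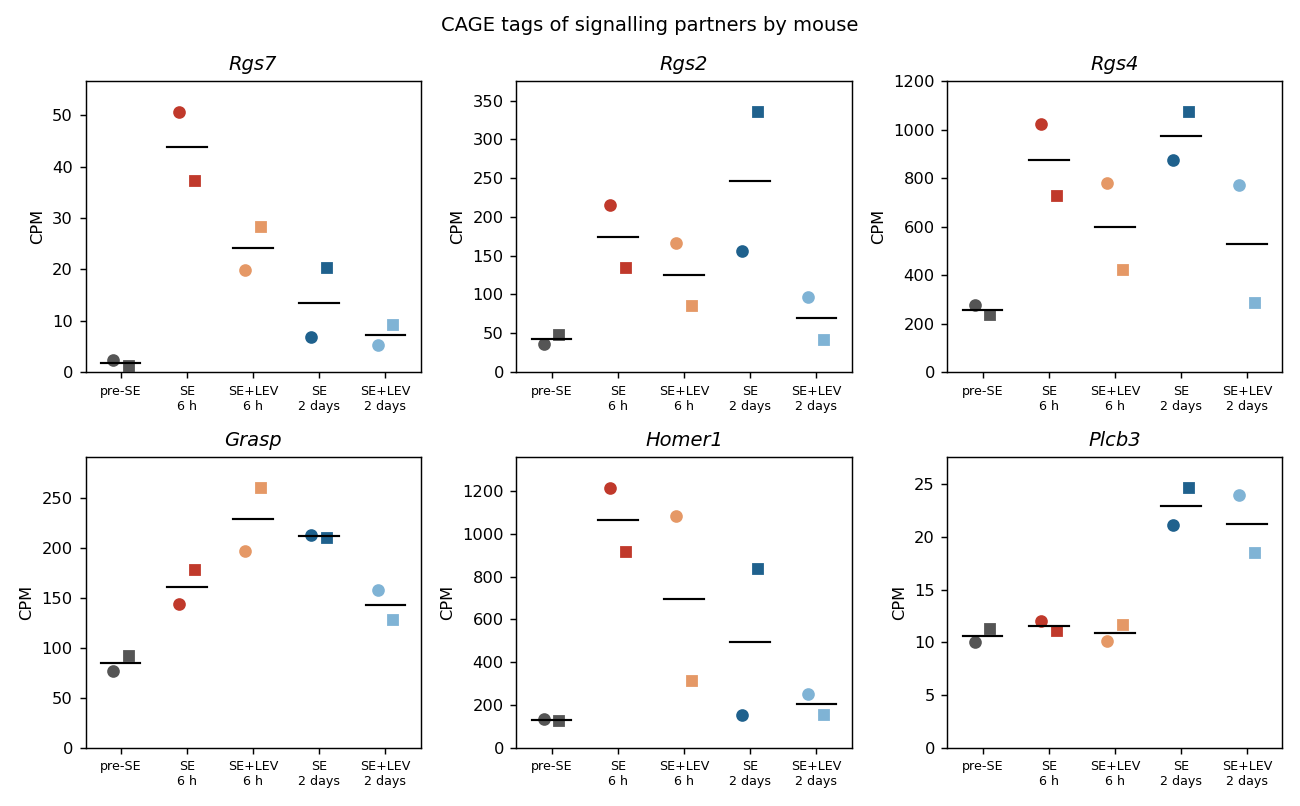
CPM (vertical axes, from 0) of the partner genes called after SE and of *Homer1* in each mouse (circles, replicate 1; squares, replicate 2; lines, group means). *Rgs7* is highest in the SE 6 h mice, at 50.58 and 37.21 CPM, and *Plcb3* lies between 18.52 and 24.65 CPM in all mice sampled at 2 days.

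Leaving out single mice ended many calls at 2 days, while the logFC values kept their direction. Without SE 2 days replicate 2 all 5 calls were lost by limma, at a logFC of 1.94 for *Rgs7* (adjusted p = 0.127), 1.92 for *Rgs2* (adjusted p = 0.189), 1.78 for *Rgs4* (adjusted p = 0.25), 1.34 for *Grasp* (adjusted p = 0.0751) and 0.99 for *Plcb3* (adjusted p = 0.277). Leaving out pre-SE replicate 1 kept 1 of these 5 calls, that of *Rgs7*, with an adjusted p for *Grasp* of 0.0865, and leaving out pre-SE replicate 2 kept 1, that of *Grasp*. *Plcb3* and *Rgs4* were also lost without SE 2 days replicate 1 (adjusted p = 0.0788 and 0.0813). The calls of SE + LEV 6 h against pre-SE mice were lost when either mouse of either group was left out, with adjusted p up to 0.25 for *Grasp* and 0.13 for *Rgs7*, while *Rgs7* at 6 h after SE stayed called, with a highest adjusted p of 0.0239. For LEV against SE, limma called 0 of the partner genes at either time, as did edgeR and DESeq2. At an unadjusted p under 0.05 there were 2 genes at 6 h, *Adcy8* and *Arrb2*, and 4 at 2 days, *Rgs2* (logFC -1.85, adjusted p = 1), *Rgs4*, *Grasp* and *Slc1a3*, against 726 and 428 of all 15851 genes.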

How the data were processed

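The 10 hippocampal CAGE libraries were analysed from 1 deposited table of CPM (counts per 1000000 tags) per gene. The authors mapped single-end reads to mm9 with BWA 0.7.17, mapped the remainder with HISAT2 2.0.5 and grouped 5′ ends into clusters with RECLU. The step from clusters to gene totals is not given in the sources used here. No column of per-mouse values was left out (0). Whole tags were recovered for 100% of values within rounding, which gave the depths. Tests used limma 3.58.1 in R 4.3.3, with a pseudocount of 0.1 CPM and a mean-variance trend, two-sided, over 54 tests of receptor genes in 9 comparisons. Alternatives were other pseudocounts, filters and scaling, a replicate block, no trend, separate fits, each mouse left out, and edgeR 4.0.16 and DESeq2 1.42.0 on recovered tags. The fits were tested on simulated data. The receptor genes and the lists were chosen with earlier results of these data known. Named genes were all receptor genes, partner genes that were called, other partner genes on the lists, and the 3 nearest profiles per receptor gene. Tables and figures used Python 3.11.15, and promoter letters came from RefSeq. Of the marker genes, 1 is not reported here.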

Additional observations from a re-analysis of the deposited data

Results flagged for a closer look

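*Grasp*, the gene of the receptor adaptor tamalin, was singled out because the SE + LEV mice lay above the SE mice at 6 h and below them at 2 days. The logFC against SE alone was 0.50 at 6 h and -0.58 at 2 days, and neither passed the test (adjusted p = 1 for each). The difference between these effects was tested in the limma fit and was -1.075 (unadjusted p = 0.00813, adjusted p = 1), which did not pass the threshold, with 0% of all genes called in that comparison. As *Grasp* was singled out by the same values in the same mice, this unadjusted p cannot be taken at face value.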

How the results depend on the processing

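Of 191 recomputed counts of called receptor genes 190 were 0. The exception was DESeq2 on recovered tags in SE 6 h against pre-SE mice, with 1 (*Grm7*). Of 35 differences of single receptor genes, 8 changed sign under at least 1 of the alternatives. For LEV against SE, *Grm2* at 6 h was -0.017 after rescaling and -0.004 with DESeq2, *Grm2* at 2 days -0.128 with edgeR and -0.132 with DESeq2, and *Grm5* at 2 days 0.118 with edgeR and 0.035 with DESeq2. With each mouse left out, the logFC against pre-SE ran from -0.306 to 0.791 for *Grm4* at 6 h and from -0.031 to 0.232 for *Grm5* at 2 days. For LEV against SE at 6 h it ran from -0.474 to 0.556 for *Grm2*, -0.163 to 0.294 for *Grm3*, -0.056 to 1.04 for *Grm4* and -0.395 to 1.085 for *Grm5*, and at 2 days from -0.654 to 0.819 for *Grm2* and -0.747 to 0.49 for *Grm5*. The cause was not tested. Counts over all genes were larger with DESeq2, 1107 against 469 for SE 6 h and 1607 against 897 for SE 2 days against pre-SE mice, and 75 against 2 and 4 against 0 for LEV against SE at 6 h and 2 days. Leaving out mice gave 111 to 531 at 6 h and 249 to 1162 at 2 days against pre-SE mice. For the other comparisons, DESeq2 called 378 against 51 in SE + LEV 6 h and 819 against 451 in SE + LEV 2 days against pre-SE mice, and 1293 against 674 and 626 against 339 between the times without and with LEV. In both comparisons of SE + LEV with pre-SE mice the lowest count over all alternatives was 0.

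With the replicate number as a block, 0 receptor genes were called in all 9 comparisons. Deviations of same-numbered mice correlated between -0.44, for SE + LEV 2 days and pre-SE mice, and 0.34, for SE 6 h and pre-SE mice. Whether mice of different groups shared a source of spread was not tested. The block ended the calls of *Plcb3* at 2 days (adjusted p = 0.0543) and of *Grasp* in SE + LEV 6 h against pre-SE mice (adjusted p = 0.0575). Crossing the numbers of the SE + LEV 2 days mice, chosen after seeing the data, also called 0 receptor genes. Low tag counts limit *Grm5* most, at 1 to 13 tags, and intervals based on 2 mice a group limit the rest.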
